A study of Mus musculus with 60 samples.

Results

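The genes described here encode the 2 apical salt transporters of the distal nephron and the proteins that set their activity: Slc12a1 (NKCC2), Slc12a3 (NCC), Wnk1, Wnk4, Stk39 (SPAK), Oxsr1 (OSR1), Klhl3, Cul3, Umod and Kcnj10 (Kir4.1). They were chosen by name, as members of the pathway, and are 10 of the 55335 gene rows counted in each kidney. All 10 passed the filter on low values that left 15546 genes for testing (at least 1 CPM, the count scaled to library size, in at least 1 sample).

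NKCC2 carries sodium, potassium and chloride into the cells of the thick ascending limb, and NCC carries sodium and chloride into those of the distal convoluted tubule. Loop and thiazide diuretics block them, respectively. WNK kinases phosphorylate and activate SPAK and OSR1, which in turn phosphorylate and activate both transporters, while KLHL3 brings WNK kinases to a CUL3 ubiquitin ligase for degradation. Kir4.1, a basolateral potassium channel, couples plasma potassium to chloride inside distal convoluted tubule cells and so to WNK activity. Uromodulin, the product of Umod, is the main protein secreted by the thick ascending limb, and it is known to favour NKCC2 activity. Messenger RNA levels, the only quantity measured here, carry no information on the phosphorylation through which this pathway mostly acts.

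Kidneys came from 60 male mice on a C57BL/6J background, 5 per group in 12 groups of 2 genotypes and 6 zeitgeber times (ZT, hours after lights on), ZT0, ZT4, ZT8, ZT12, ZT16 and ZT20. The cKOt mice were Bmal1lox/lox/Pax8-rtTA/LC-1 and the control mice were their Bmal1lox/lox littermates, so that both genotypes carried the floxed alleles but only the cKOt mice carried the Pax8-driven transactivator and the Cre transgene. Both received doxycycline with sucrose for 2 weeks from 8 weeks of age, and kidneys were taken 4 weeks after this treatment ended. The mice were kept in a cycle of 12 h light and 12 h dark with food freely available. Because Pax8 is active along the renal tubule, the deletion was not limited to the segments where NCC and NKCC2 are made. The labels name the tissue as renal tubule, whereas the study's methods describe frozen kidney tissue. Markers of podocytes (3 genes, summed level 304 ± 25.4 CPM in control mice, SD, n = 30) and of endothelium (4 genes, 295 ± 15.1 CPM) were present in every control sample, beside 4 thick ascending limb markers (1951 ± 197 CPM) and 4 distal convoluted tubule markers (398 ± 58.4 CPM).

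Each library held 17791420 to 20906706 counts on genes. The targeted gene, Bmal1 (Arntl in the files), ran from a mean of 2.73 CPM at ZT8 to 48.4 CPM at ZT0 in control mice and from 17.4 to 24.4 CPM in cKOt mice. Its variation over time passed the test in control mice (adjusted p = 4.1e-24) and not in cKOt mice (adjusted p = 0.189), by the quasi-likelihood test of edgeR, adjusted over all genes after Benjamini and Hochberg. Counts per gene do not separate the deleted exon from the rest of the transcript, so the flat level in cKOt mice checks the labels while its height does not measure the deletion. Genes that mark the thick ascending limb summed to 2007 ± 174 CPM in cKOt mice and those of the distal convoluted tubule to 482 ± 94.9 CPM (SD, n = 30). In bulk tissue, fewer cells of a type and less RNA per cell cannot be told apart.

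All 10 genes differed between genotypes when the 6 time points were averaged, 7 higher and 3 lower in cKOt mice, beside a background of 50.0% of all tested genes called in this comparison (26.8% higher, 23.2% lower). The sizes were small. Umod, at 25% lower, and Cul3, at 13.2% lower, were the only members called at each of the 6 time points, while the genes of the transporters, NKCC2 and NCC, were 8.49% and 4.81% higher. Without the mice numbered 5 in each group, 6 of 10 were called, among 15460 genes tested. Slc12a1, Slc12a3, Wnk1 and Stk39 were not called there (adjusted p from 0.0718 to 0.338). Leaving out the mice of a given number, or only the control ZT20 mouse with low Slc12a1, gave 6782 to 7649 called genes. The median absolute log2 difference of the 10 genes was 0.10, and over all tested genes it was also 0.10. No member showed a genotype difference that changed with time of day (0 of 10, with a lowest adjusted p of 0.424 and 0 with an unadjusted p under 0.05), beside 3.08% of all genes.

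**Figure D1:**
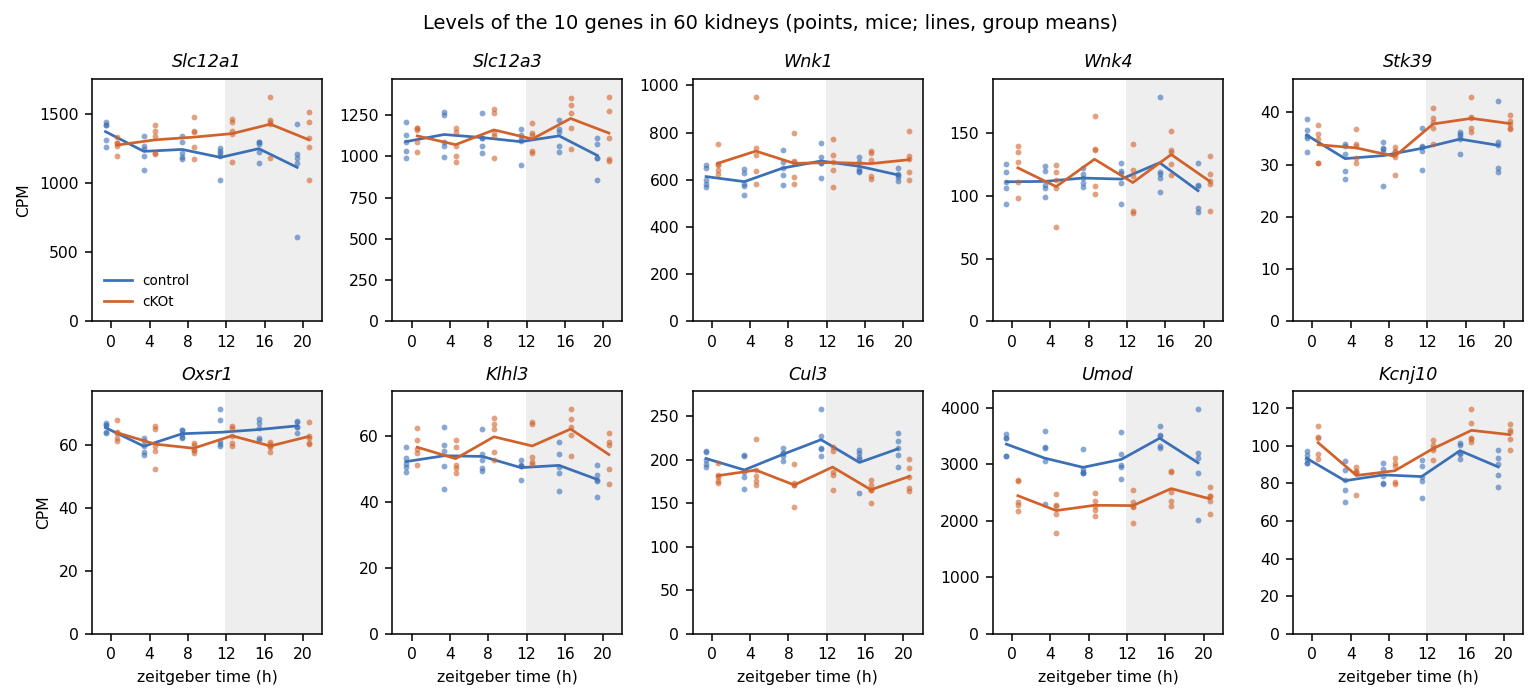
Level of each gene in CPM against zeitgeber time in hours, in control mice (blue) and cKOt mice (orange), 5 mice per group as points and group means as lines, with the dark phase shaded. The 2 lines of Umod stay apart at all 6 time points, those of Cul3 are apart except at ZT4, the points of Kcnj10 are apart at ZT12, ZT16 and ZT20, and in the other 7 genes the points of the genotypes overlap at 4 or more of the 6 time points.

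On the scale of level per transcript length, CPM per kilobase of annotated exon, Umod led the 10 genes in control mice at 1204 ± 154 (SD, n = 30). Slc12a1 followed at 250 ± 31.1 and Slc12a3 at 232 ± 20.2, and these neighbours overlapped, with Slc12a1 above Slc12a3 in 25 of 30 control mice. Wnk1 stood at 51.8 ± 3.99, Cul3 at 43.5 ± 3.85 and Wnk4 at 27.5 ± 3.96, and over the 30 mice the range of Cul3 overlapped with those of Wnk1 and Wnk4. Kcnj10 at 16.3 ± 1.51, Oxsr1 at 13.8 ± 0.72, Stk39 at 9.43 ± 0.97 and Klhl3 at 7.20 ± 0.69 were the lowest. The ranges of Kcnj10 and Oxsr1 overlapped, as did those of Stk39 and Klhl3, but Wnk4 and Kcnj10 did not overlap, nor did Oxsr1 and Stk39.

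The genes lie on 8 chromosomes of the GRCm38 assembly (GENCODE annotation). Slc12a1 lies on chromosome 2 from 125152505 to 125230002 on the plus strand, and Stk39 on the same chromosome from 68210445 to 68472268 on the minus strand. Slc12a3 spans 94329201 to 94366214 of chromosome 8 (plus), Wnk1 spans 119923969 to 120038672 of chromosome 6 (minus) and Wnk4 spans 101260567 to 101277409 of chromosome 11 (plus). Oxsr1 is found between 119238432 and 119322427 of chromosome 9 (minus), Klhl3 between 58000228 and 58113592 of chromosome 13 (minus) and Umod between 119462711 and 119479282 of chromosome 7 (minus). Cul3, at 80264923 to 80340480 on the minus strand, and Kcnj10, at 172341210 to 172374085 on the plus strand, share chromosome 1. All are protein-coding, and every count refers to reads assigned to the exons of the whole gene.

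Of the transporters, Slc12a1 had 608, 1240 and 1444 CPM as its lowest, median and highest control value, and 1024, 1348 and 1625 CPM in cKOt mice (30 mice each). The ranges overlapped widely, and 23 of the 30 cKOt mice lay above the control median. Over the day the gene was 0.12 ± 0.044 higher in cKOt mice (log2 fold change ± SE, adjusted p = 0.0212, edgeR's quasi-likelihood test). At single time points it ran from 0.10 lower in cKOt mice at ZT0 to 0.23 higher at ZT20, and at none of the 6 did it pass the test. At ZT0 the control mice had 1444, 1424, 1312, 1420 and 1265 CPM and the cKOt mice 1331, 1195, 1291, 1266 and 1294 CPM. At ZT20 the control mice had 1144, 608, 1209, 1427 and 1182 CPM and the cKOt mice 1024, 1446, 1264, 1324 and 1514 CPM. The second control mouse at ZT20 was far below every other mouse, and without it the difference over the day was 0.08 (adjusted p = 0.0289).

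Slc12a3 ranged from 860 to 1267 CPM in control mice (median 1092) and from 966 to 1362 CPM in cKOt mice (median 1144). Here 19 of 30 cKOt mice lay above the control median, and the ranges overlapped at every time point. The difference over the day was 0.07 ± 0.027 (log2 ± SE, adjusted p = 0.0342 in edgeR's quasi-likelihood test). This call was lost without the 2 factors of unwanted variation (RUVs) that the fit carried, where the value was 0.06 (adjusted p = 0.164), and in 9 of 15 alternative analyses in all. At ZT20 the control mice had 860, 1073, 993, 1112 and 991 CPM and the cKOt mice 1113, 971, 985, 1278 and 1362 CPM, with 3 of 5 cKOt mice above all control mice. ZT20 was the only time point at which Slc12a3 was called (0.20 ± 0.068, adjusted p = 0.0368). This call too was lost without RUVs factors (adjusted p = 0.193), and in 7 of 15 alternative analyses in all. At ZT4 the fitted log2 difference was 0.0015, with a 95% interval from -0.14 to 0.14.

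**Figure D2:**
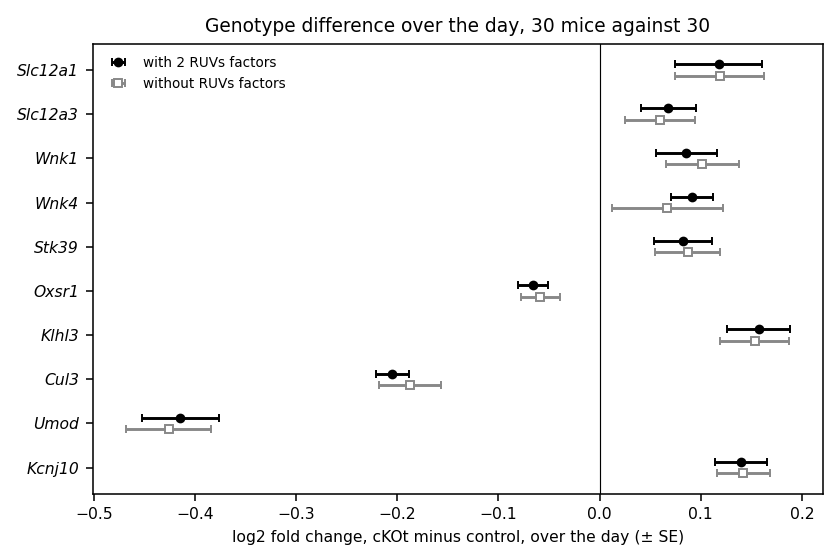
Log2 fold change of each gene over the day, cKOt minus control (30 mice against 30), with bars of 1 SE, from the fit with 2 RUVs factors (filled) and without them (open). Umod lies at -0.41 and Cul3 at -0.20, and the other 8 genes lie between -0.07 and 0.16.

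The kinase genes Wnk1, Wnk4 and Stk39 were 5.9% to 6.53% higher over the day and Oxsr1 was lower. Wnk1, whose product sits upstream of SPAK and OSR1, had 536 to 754 CPM in the control group and 570 to 952 CPM in the other, and was 0.09 ± 0.030 higher over the day (log2 ± SE, adjusted p = 0.0159). It was called at no single time point, although without RUVs factors it was at ZT4 (0.29, adjusted p = 0.0207). Counts per gene merge the long Wnk1 transcript and the kidney-specific one that lacks the kinase domain, so the value speaks for their sum. Wnk4, the WNK kinase of the distal convoluted tubule best known for mutations in familial hyperkalaemic hypertension, was 0.09 ± 0.021 higher over the day (adjusted p = 2.4e-04), with 87.0 to 179 CPM in control and 74.7 to 163 CPM in cKOt mice. That call rested on the RUVs factors, since the difference was 0.07 without them (adjusted p = 0.345). The mice themselves overlapped throughout, and only 18 of 30 cKOt mice were above the control median.

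At ZT4, the single time point at which Wnk4 was called (0.19 ± 0.054, adjusted p = 0.0133), the control mice had 124, 98.6, 120, 109 and 107 CPM and the cKOt mice 119, 125, 106, 113 and 74.7 CPM. These values do not separate the genotypes, and without RUVs factors the sign turned, to -0.05 (adjusted p = 0.808). Stk39 was 0.08 ± 0.028 higher over the day (adjusted p = 0.0133) and Oxsr1, whose product is closely related, 0.07 ± 0.015 lower (adjusted p = 2.1e-04). At ZT16 the 5 cKOt mice had 36.3 to 43.0 CPM of Stk39 against 31.9 to 36.2 CPM in control mice, without overlap, but the difference of 0.18 did not pass the test (adjusted p = 0.0603). Oxsr1 at ZT16 stood at 60.4, 59.5, 61.0, 59.7 and 57.8 CPM in cKOt mice against 61.7, 67.0, 68.2, 65.5 and 62.1 CPM in control mice. Every cKOt mouse was thus below every control mouse, and the difference of -0.11 ± 0.037 was called (adjusted p = 0.0239). That call was lost without RUVs factors (adjusted p = 0.0944), and in 6 of 15 alternative analyses in all.

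The 2 ligase genes moved in opposite directions. Klhl3, which encodes the adaptor that binds WNK kinases, was 11.5% higher over the day (log2 0.16 ± 0.031, adjusted p = 2.5e-05), with 41.7 to 62.7 CPM in control and 45.6 to 68.2 CPM in cKOt mice. Of the cKOt mice, 26 of 30 were above the control median. At ZT16 the control mice had 58.3, 50.8, 54.5, 48.7 and 43.5 CPM of Klhl3 and the cKOt mice 65.3, 68.2, 54.1, 60.5 and 62.8 CPM. All but 1 of these cKOt mice were above the highest control mouse (0.26 ± 0.076, adjusted p = 0.00949), though the call was lost with library batch in place of RUVs factors (adjusted p = 0.0504) and without the mice numbered 4 (0.0618) or 5 (0.0594). At ZT20 the difference was 0.24 (adjusted p = 0.0243), while at ZT4 it was 0.01. The ZT20 call was lost in 7 of 15 alternative analyses. Among them were those without RUVs factors (adjusted p = 0.107) and without the control mouse with low Slc12a1 (adjusted p = 0.0589).

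Cul3, the scaffold of the ligase, fell by 0.20 ± 0.016 on the log2 scale over the day (adjusted p = 4.7e-16) and was called at all 6 time points, which held for 2.41% of all tested genes in this direction. Control mice ranged from 162 to 258 CPM and cKOt mice from 145 to 224 CPM, and 27 of 30 cKOt mice lay below the control median. At ZT8 the control mice had 208, 213, 208, 198 and 205 CPM and the cKOt mice 171, 195, 171, 145 and 173 CPM. No cKOt mouse reached the lowest control mouse there, and the difference was -0.23 ± 0.040 (adjusted p = 1.2e-05). ZT4 was different: the control mice had 180, 205, 167, 205 and 186 CPM and the cKOt mice 181, 176, 189, 171 and 224 CPM. These values overlapped, and the fitted difference was -0.16 ± 0.042 with the RUVs factors (adjusted p = 0.00733) and -0.0014 without them (adjusted p = 0.992). The fall at ZT0 was of like size in both fits but was called only with RUVs factors (adjusted p = 0.00812 with and 0.293 without), whereas ZT8, ZT12, ZT16 and ZT20 were called in both.

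Umod showed the largest difference of the 10 genes. At ZT0 the control mice had 3539, 3470, 3153, 3465 and 3148 CPM and the cKOt mice 2727, 2331, 2704, 2280 and 2173 CPM. At ZT12 the control mice had 2745, 2949, 2978, 3185 and 3569 CPM and the cKOt mice 2239, 2265, 2332, 2539 and 1965 CPM. At both of these times, and at ZT8 and ZT16, every cKOt mouse was below every control mouse, a separation that 6.86% to 11.1% of all genes showed at a given time point. Over the day Umod fell by 0.41 ± 0.038 on the log2 scale (adjusted p = 1.2e-13, edgeR's quasi-likelihood test), and all 30 cKOt mice were below the control median. The differences at the 6 times lay between -0.45 (ZT0) and -0.37 (ZT20), with adjusted p from 3.1e-04 to 0.00351, and the interaction with time was far from the threshold (adjusted p = 0.998).

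The 2 exceptions to separation in Umod came from single control mice. At ZT4 control mice had 3308, 3054, 3590, 3285 and 2301 CPM against 2465, 2274, 2254, 2119 and 1790 CPM in cKOt mice, and the last control mouse lay within the cKOt range. At ZT20 they had 3194, 2006, 3113, 3971 and 2843 CPM against 2356, 2436, 2118, 2603 and 2435 CPM, and the second control mouse was below all 5 cKOt mice. This was the mouse with the lowest Slc12a1, and without it the Umod difference at ZT20 was -0.46 (adjusted p = 1.7e-04). Umod kept its call over the day and at each time point in all 15 alternative analyses, including those without RUVs factors. Within the 6 library batches named in the study's sample table, the genotype difference, taken relative to the mean of each time point, ran from -0.59 to -0.27 for Umod and from -0.28 to -0.10 for Cul3, lower in 6 of 6 batches for both.

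**Figure D3:**
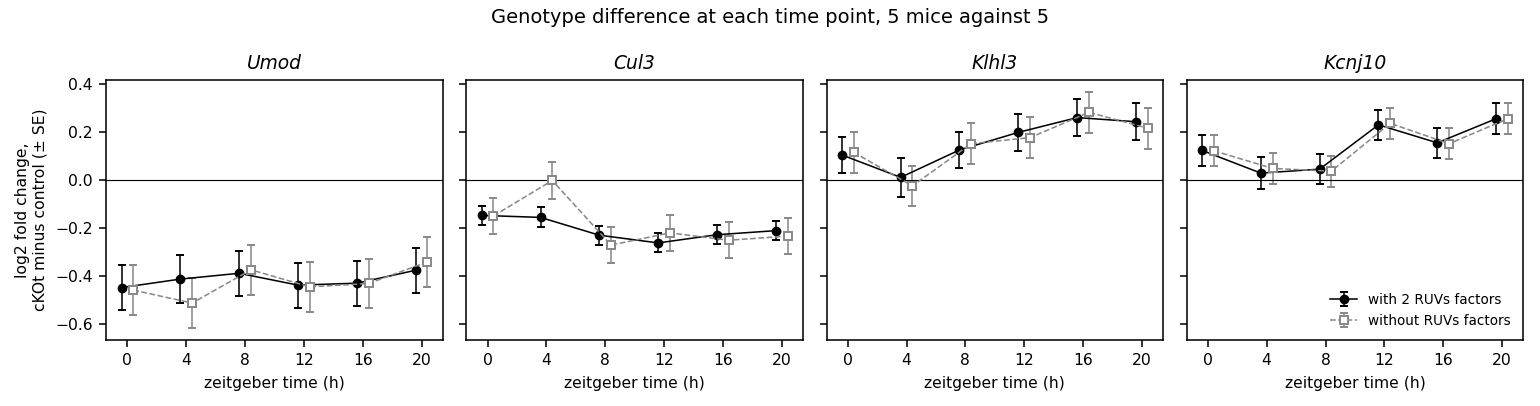
Log2 fold change at each zeitgeber time, cKOt minus control (5 mice against 5), with bars of 1 SE, for Umod, Cul3, Klhl3 and Kcnj10, from the fits with (filled) and without (open) RUVs factors. Umod lies between -0.51 and -0.34 in both fits, Cul3 at ZT4 moves from -0.16 to -0.0014 without the factors, and Klhl3 and Kcnj10 are highest from ZT12 to ZT20.

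Of the 4 markers of the thick ascending limb none was called lower. Egf, the gene of epidermal growth factor, differed by 0.0029 ± 0.038, and Ptger3, a prostaglandin receptor, by 0.01 ± 0.050, neither called. Kcnj1, which encodes the apical potassium channel ROMK, was 0.24 ± 0.031 higher (adjusted p = 3.5e-09) and Cldn16, a paracellular magnesium pore, 0.12 ± 0.041 higher (adjusted p = 0.0137). The summed level of the 4 markers ranged from 1450 to 2266 CPM in control and from 1639 to 2322 CPM in cKOt mice. For the distal convoluted tubule the sum ranged from 272 to 517 CPM in control and 317 to 725 CPM in cKOt mice, with 3 of 4 markers higher and Pvalb not called. Calb1, which made up most of that sum, was 0.27 ± 0.062 higher. Immune markers (4 of 4 lower, sum 117 to 231 against 86.4 to 162 CPM), fibroblast markers (3 of 3 lower, 41.0 to 125 against 45.6 to 110 CPM) and endothelial markers (4 of 4 lower, 268 to 329 against 219 to 311 CPM) moved with genotype as well. In the other lists called markers went both ways or were few. In control and cKOt mice, respectively, proximal tubule markers summed to 9808 and 9640 CPM (2 of 5 higher and 2 lower), principal cell markers to 153 and 143 CPM (1 of 4 higher and 1 lower) and intercalated cell markers to 161 and 167 CPM (3 of 4 higher and 1 lower). Podocyte markers summed to 304 and 297 CPM (0 of 3 called) and injury markers to 3.78 CPM in both (1 of 3 higher). No marker was at 0 in either genotype, and their part in the results was not tested.

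The promoters of Umod and Cul3 are printed because these were the 2 genes called at every time point. They are the 250 bases before the RefSeq start in GRCm38.p6, written 5′ to 3′ on the minus strand, with the capitals marking the one match to a searched motif. The Umod bases are chr7:119479263-119479512 and the Cul3 bases are chr1:80340691-80340940.
Umod promoter: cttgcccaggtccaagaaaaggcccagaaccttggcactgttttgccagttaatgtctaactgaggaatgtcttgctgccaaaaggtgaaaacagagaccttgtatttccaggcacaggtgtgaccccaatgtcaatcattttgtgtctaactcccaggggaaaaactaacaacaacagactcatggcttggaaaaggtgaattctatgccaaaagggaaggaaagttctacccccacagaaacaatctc
Cul3 promoter: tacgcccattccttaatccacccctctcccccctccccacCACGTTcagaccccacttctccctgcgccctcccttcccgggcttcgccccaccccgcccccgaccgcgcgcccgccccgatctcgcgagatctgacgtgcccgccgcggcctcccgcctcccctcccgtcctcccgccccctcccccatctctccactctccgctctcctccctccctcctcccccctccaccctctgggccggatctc
The search covered both strands of all 10 members' promoters, from 250 bases before to 50 bases after the start, for CACGTG (the E-box bound by BMAL1 with CLOCK), CACGTT (a variant of it), TTATGTAA (a D-box) and AGGTCA (the core of ROR and REV-ERB sites). Among the 32851 promoters of the RefSeq table, 7.15%, 4.68%, 0.938% and 16.3% held these letters, respectively. Of the 10 members 1 had a match, the CACGTT in Cul3 that begins 210 bases before the start. A match of letters is not evidence of binding, and the search says nothing of sites outside this window.

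Kcnj10, the channel gene, was 10.2% higher over the day (log2 0.14 ± 0.026, adjusted p = 8.5e-06), with 69.8 to 102 CPM in control and 73.9 to 119 CPM in cKOt mice. At ZT20 the control mice had 97.9, 78.1, 90.0, 93.2 and 84.2 CPM and the cKOt mice 98.0, 104, 108, 108 and 112 CPM. At ZT12 the control mice had 72.0, 92.4, 81.2, 89.2 and 83.1 CPM and the cKOt mice 103, 98.7, 97.9, 100 and 92.6 CPM. The genotypes did not overlap at ZT12, ZT16 or ZT20, and the difference was called at ZT12 (0.23 ± 0.063, adjusted p = 0.00512, and 0.0787 without the mice numbered 1) and ZT20 (0.26 ± 0.064, adjusted p = 0.00308) but not at ZT16 (adjusted p = 0.074). The difference was 0.12 at ZT0, 0.03 at ZT4 and 0.05 at ZT8, none of them called. That these differ from the values at ZT12, ZT16 and ZT20 was not shown, since the interaction with time was not called (adjusted p = 0.424). Across batches Kcnj10 was higher in cKOt mice in 6 of 6. Kcnj16, whose product joins Kir4.1 in a heteromeric channel, went the other way, 0.17 ± 0.023 lower over the day (adjusted p = 7.0e-09).

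The number of members called at single time points was 2 of 10 at ZT0 (12.1% of all genes), 3 at ZT4 (12.5%), 2 at ZT8 (19.9%), 3 at ZT12 (21.0%), 4 at ZT16 (19.8%) and 5 at ZT20 (13.8%). Apart from Umod and Cul3, which were in each of these counts, the called genes were Wnk4 at ZT4, Kcnj10 at ZT12, Oxsr1 and Klhl3 at ZT16, and Slc12a3, Klhl3 and Kcnj10 at ZT20. Without RUVs factors the counts were 1 (6.32% of all genes), 2 (15.6%), 2 (12.9%), 3 (14.6%), 3 (11.9%) and 3 (9.05%). At ZT4 the members called in that fit were Umod and Wnk1, and Cul3 and Wnk4 were not. Members whose values did not overlap between genotypes numbered 1 at ZT0 (7.30% of all genes), 0 at ZT4 (11.1%), 3 at ZT8 (9.49%), 2 at ZT12 (9.73%), 4 at ZT16 (9.04%) and 1 at ZT20 (6.86%). The sign of the fitted difference was the same at all 6 time points for 7 of 10 members, beside 35.6% of all genes. Slc12a1, Wnk1 and Stk39 were the exceptions. Without RUVs factors the sign at ZT4 turned for Slc12a3 (-0.08), Wnk4 (-0.05), Klhl3 (-0.02) and Oxsr1 (0.02). Only Cul3, Umod and Kcnj10 then had the same sign at all 6 time points. The 2 members called at every time point compare with 4.33% of all genes called at all 6 in 1 direction.

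In control mice 3 of 10 genes varied over time (Wnk4, Oxsr1 and Kcnj10) and in cKOt mice 2 of 10 (Stk39 and Kcnj10), beside 30.6% and 26.6% of all genes. Kcnj10 varied in both genotypes (adjusted p = 0.00354 in control and 5.9e-06 in cKOt mice), from 81.4 ± 8.59 CPM at ZT4 to 97.4 ± 3.62 CPM at ZT16 in control mice and from 84.2 ± 5.89 to 108 ± 7.34 CPM at the same times in cKOt mice (SD, n = 5). Stk39 in cKOt mice went from 31.6 ± 2.05 CPM at ZT8 to 38.8 ± 2.61 CPM at ZT16 (adjusted p = 0.00108). In control mice its test missed the threshold (adjusted p = 0.0975), and a difference between the genotypes in this course was not shown (interaction adjusted p = 0.444). Oxsr1 in control mice lay between 59.6 CPM at ZT4 and 66.1 CPM at ZT20 (adjusted p = 0.0485), a call lost whenever the mice of any 1 number were left out (adjusted p from 0.0514 to 0.320). The Wnk4 call in control mice (adjusted p = 0.0058) was lost without RUVs factors (adjusted p = 0.600).

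For the transporter genes no time course was called. Highest and lowest group means of Slc12a1 differed 1.23-fold in control mice (ZT0 against ZT20) and 1.12-fold in cKOt mice, and those of Slc12a3 1.13-fold and 1.15-fold. The ratio of Slc12a1 in control mice was above that of Kcnj10, whose course was called, and its lowest mean was at ZT20, the group with the mouse at 608 CPM. The adjusted p was 0.255 in control and 0.747 in cKOt mice for Slc12a1, and 0.491 and 0.751 for Slc12a3. Umod also had no called time course, with group means from 2945 to 3460 CPM in control mice and from 2180 to 2569 CPM in cKOt mice (adjusted p = 0.349 and 0.616).

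The same values were sorted into 5 rhythm models with a 24 h cosine, requiring a weight of at least 0.65 for a gene to be assigned. Slc12a1, Slc12a3 and Cul3 fell into the model with no rhythm in either genotype (model 1, which took 34.0% of all genes) and Oxsr1 and Kcnj10 into the one with the same rhythm in both (model 4, 25.2%). Wnk4 fell into the one with a rhythm in control mice only (model 2, 6.25%), and Wnk1, Stk39, Klhl3 and Umod stayed unassigned (28.7%). No member had a rhythm in cKOt mice only (model 3, 3.42%) or an altered one (model 5, 2.37%). The shared rhythm of Kcnj10 peaked at 18.3 ± 0.55 h with a peak-to-trough difference of 0.29 ± 0.041 (log2 ± SE), and that of Oxsr1 at 19.4 ± 0.92 h with 0.08 ± 0.020. Both peaks fell in the dark phase. Fitted separately by genotype, the peak-to-trough difference of Kcnj10 was 0.195 ± 0.057 in control and 0.382 ± 0.057 in cKOt mice (log2 ± SE). The Wnk4 assignment, at a weight of 0.78, became model 1 without the RUVs correction. The weights of Kcnj10 (0.67) and Cul3 (0.66) were just above the limit of 0.65. Assignments of Kcnj10, Cul3 and Wnk4 each changed in 4 of 11 alternative analyses. Those of Slc12a3 and Oxsr1 each changed in 3, and that of Slc12a1 was kept throughout.

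The wider pathway list held 45 genes that regulate or accompany these transporters, of which 43 were tested and Cldn14 and Kcna1 were below the filter. Averaged over the day, cKOt mice had more of 19 of them and less of 13, 32 in all or 74.4%, beside 50.0% of all genes, with a median log2 difference of 0.05 against 0.01 over all genes. Of 14 tested thick ascending limb genes 8 were higher and 3 lower, and of 9 tested distal convoluted tubule genes 6 were higher and 2 lower. Among the lower ones of the thick ascending limb were Atp1b1 and Fxyd2, a subunit and a regulator of the sodium pump that other segments also make. Of 16 genes of WNK signalling 4 were higher and 5 lower.

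**Figure D4:**
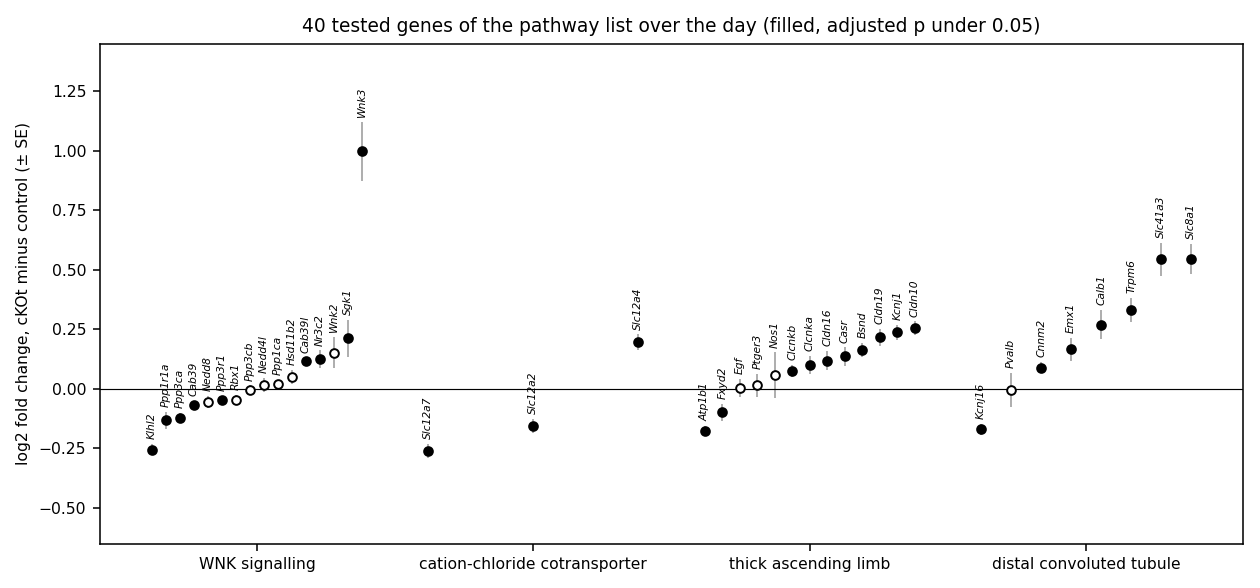
Log2 fold change over the day, cKOt minus control, with bars of 1 SE, for 40 of the 43 tested genes of the pathway list in 4 classes, filled where the adjusted p was under 0.05. Wnk3 stands at 1.00, and most genes of the thick ascending limb and distal convoluted tubule classes lie above 0.

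Wnk3, Slc8a1, Slc41a3 and Trpm6 were 4 of the 6 called genes of the list with the largest differences. Wnk3, a further WNK kinase, rose from 1.19 ± 0.47 to 2.41 ± 0.75 CPM (mean ± SD, n = 30), a log2 change of 1.00 ± 0.12, at a level near the filter. Slc8a1, the basolateral sodium-calcium exchanger of the distal convoluted tubule and connecting tubule, rose from 197 ± 37.8 to 291 ± 72.7 CPM (0.54 ± 0.064). Slc41a3, a magnesium carrier gene, went from 2.14 to 3.04 CPM (0.54 ± 0.069) and Trpm6, the apical magnesium channel, from 20.0 to 25.6 CPM (0.33 ± 0.051).

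A difference that depended on time was called for 4 of the 43 genes, beside 3.08% of all genes. Among them were Slc12a7, Cldn10 and Atp1b1, named after their values were seen. Time courses were called for 15 of the 43 genes in control mice (30.6% of all genes) and for 8 in cKOt mice (26.6%).

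Among WNK regulators, Klhl2, the relative of Klhl3 that also targets WNK kinases, fell by 0.26 ± 0.023 on the log2 scale (adjusted p = 2.8e-14), opposite to Klhl3. Cab39l, an isoform of the MO25 scaffold of SPAK and OSR1, was 0.12 ± 0.017 higher and Cab39 was 0.07 ± 0.015 lower. Sgk1, an aldosterone-responsive kinase, was 0.21 ± 0.078 higher (adjusted p = 0.0198), between -0.35 and 0.69 over the time points. The mineralocorticoid receptor gene Nr3c2 was 0.12 ± 0.038 higher (adjusted p = 0.00503). The ubiquitin ligase gene Nedd4l differed by 0.02 ± 0.028 and was not called.

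Levels of Slc12a1 and Umod, both products of thick ascending limb cells, varied together from mouse to mouse. After the mean of each of the 12 groups was removed, their log2 levels had a Pearson r of 0.60 over 60 mice (permutation test within groups, 100000 resamples, two-sided, adjusted p = 0.00285 over 3 pairs, raw p = 9.5e-04) and a Spearman rho of 0.37 (adjusted p = 0.0211). Without the 2 mice farthest from the median in Slc12a1, r was 0.32 (adjusted p = 0.068 in the same permutation test), so the strength of the relation rests on those mice. Both were control mice at ZT20, with Slc12a1 residuals of -0.82 and 0.41 and Umod residuals of -0.56 and 0.43 from the mean of that group. Without only the control mouse with the low values at ZT20 it was 0.38 (adjusted p = 0.0268, permutation test). Within the 6 library batches, of 9 to 12 mice each, r ran from -0.29 to 0.80. Slc12a3 and Kcnj10, both of the distal convoluted tubule, had an r of 0.06 (rho 0.07), and Slc12a1 and Slc12a3 an r of -0.03 (rho -0.02), with an adjusted p of 0.853 for both pairs in the permutation test.

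**Figure D5:**
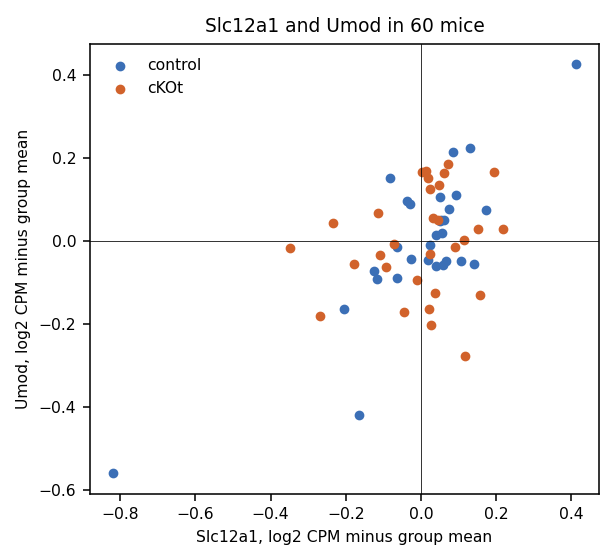
Log2 CPM of Umod against that of Slc12a1, each as the difference from the mean of its group, with 1 point per mouse (30 control, blue; 30 cKOt, orange). The control mouse at the lower left is the ZT20 mouse with 608 CPM of Slc12a1 and 2006 CPM of Umod.

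Genes most like the transporters were sought by the Pearson correlation of 12 group means among 10855 other genes with a mean of at least 5 CPM, as a description without a test, since all means come from the same libraries. For Slc12a1 they were Prox1 (0.92), Sim2 (0.85), Pla1a (0.85), Id4 (0.85) and Bst1 (0.84). For Slc12a3 they were Capn1 (0.95), Gal3st1 (0.92), Ddx39b (0.92), Ltbp3 (0.91) and Trip10 (0.91). These correlations rest on differences between group means of at most 1.23-fold within a genotype.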

How the data were processed

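Poly(A) RNA of 60 kidneys was sequenced by the authors as stranded single reads. They trimmed reads with cutadapt 1.8, aligned them to GRCm38 with STAR 2.5.3a and counted reads per gene with HTSeq 0.9.1 (the strand setting and annotation release are not given in the sources used here). The deposited values are raw counts, 55335 gene rows per sample. Rows for unassigned reads (no feature, 7.17% to 10.6%) were left out, and 0 sample columns were unused. The authors kept these mice by RNA quality and by distance from their group, which can narrow the spread.

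A gene entered the test with 1 CPM or more in any 1 sample, and genes were tested with edgeR 4.0.16 in R 4.3.3 (TMM scaling, quasi-likelihood test, 12 groups plus 2 RUVs factors, Benjamini-Hochberg adjustment over 15546 genes, threshold 0.05). The RUVs factors and the rhythm models (24 h period, weight at least 0.65) were reimplemented, and the steps were tested on simulated data. Alternatives used limma 3.58.1, DESeq2 1.42.0, other filters and scaling, library batch, and fewer mice. P-values of the edgeR tests measure the spread between mice that was left after the RUVs factors, which were estimated from these same mice. The SE over the day was 0.016 with the factors and 0.031 without them for Cul3, and 0.038 and 0.042 for Umod. Permutation tests used values without these factors.

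Members, the pathway list and the marker lists were chosen with earlier results of these data known. Named besides the members were 4 of the 6 called pathway genes with the largest absolute log2 fold change, the 5 genes most correlated with each transporter, and Arntl. Some genes of the pathway list are counted but not reported here by name. Genes named outside this rule were chosen after their values were seen. Depth was 17791420 to 20906706 counts per sample. Coordinates come from GENCODE and promoters from RefSeq.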

Additional observations from a re-analysis of the deposited data

Results flagged for a closer look

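The 10 genes in 12 groups of 5 mice make 120 sets of 5 values from the same 60 mice, and in 6 of these sets 1 mouse stood far from the other 4 by Dixon's criterion, which chance gives in about 1 in 20. In control mice, Slc12a1 at ZT12 was 1026 CPM in replicate 1 against 1199 to 1256 CPM in the others. Wnk4 at ZT16 was 179 CPM in replicate 1 against 103 to 119 CPM, and Cul3 in the same mouse was 162 CPM against 200 to 211 CPM. Stk39 at ZT8 was 25.8 CPM in replicate 5 against 32.4 to 34.3 CPM, and Umod at ZT8 was 3266 CPM in replicate 4 against 2843 to 2913 CPM. In cKOt mice, Kcnj10 at ZT4 was 73.9 CPM in replicate 4 against 85.7 to 88.9 CPM.

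In the pathway list the genotype difference depended on time of day for Slc12a7, Cldn10 and Atp1b1, among others, by the interaction term of edgeR's quasi-likelihood test. The adjusted p was 0.0119 for Slc12a7, 7.4e-06 for Cldn10 and 0.00194 for Atp1b1.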

How the results depend on the processing

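Of 150 values of the members' differences over the day under 15 alternatives, 133 kept their call, 17 lost it and 0 turned sign. Of 285 values at called time points, 245 kept their call, 38 lost it and 2 turned sign, both for Wnk4 at ZT4 (-0.054 without RUVs factors and -0.11 with library batch in their place). The cause was not tested. Oxsr1 in control mice lost its time call in each analysis without the mice of 1 number.

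Without RUVs factors, and with library batch in their place, 983 and 1130 of all genes were called at ZT0, 2013 and 1991 at ZT8, 1853 and 1829 at ZT16 and 1407 and 1419 at ZT20, and 263 and 312 had an interaction. Members called were then 1 and 1 at ZT0, 3 and 3 at ZT20, and 1 and 1 for time in control mice. Time in control mice was called for 3458 to 4805 of all genes over 14 alternatives. With batch, 3091 genes were called at ZT4, 1 member at ZT16 and 2 pathway genes for the interaction. Without the filter, with 32924 genes tested, 1 member was called at ZT4. Over the 15 alternatives 1381 to 3091 of all genes were called at that time. Members with a rhythm model numbered 3, and 1 with a weight of at least 0.8 or without the RUVs correction. Without the control ZT20 mouse with low Slc12a1, chosen after seeing the data, the r of Slc12a1 and Slc12a3 was 0.08.

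The following ranges cover the 5 analyses that each left out the mice of 1 number and the added one without only the control ZT20 mouse, which gave the highest count of all genes except at ZT20. They held 6 to 10 members over the day (6782 to 7649 of all genes), and 233 to 494 genes with an interaction. Members called were 1 to 2 at ZT0 (1299 to 1928 genes), 1 to 3 at ZT4 (1381 to 1942), 2 at ZT8 (2262 to 3154), 2 to 4 at ZT12 (2667 to 3352), 3 to 4 at ZT16 (2234 to 3152) and 3 to 5 at ZT20 (1448 to 1891). For time they were 0 to 2 in control mice (3468 to 4749) and 2 in cKOt mice (2608 to 4265). Pathway genes called were 24 to 32 over the day, 3 to 4 for the interaction, and 11 to 16 and 5 to 9 for time in control and cKOt mice. Members with a rhythm model numbered 1 to 4. The r was -0.16 to 0.18 for Slc12a1 and Slc12a3, 0.38 to 0.73 for Slc12a1 and Umod and -0.083 to 0.24 for Slc12a3 and Kcnj10.

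Residuals of mice with the same replicate number had a mean r of 0.0043, against -0.0010 for other pairs, and 14 of 60 mice correlated best with their own number, so the numbers were not treated as pairs. With the replicate number as a block, 10 members and 7734 of all genes were called over the day.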
